A study of Homo sapiens with 15 samples.

Results

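The enzymes that add or remove methyl and acetyl groups on histone lysines were followed through depletion of the SWI/SNF ATPases BRG1 and BRM in HepG2 cells. The set comprised every gene symbol of the deposited count table that begins with KDM, KMT, SETD, HDAC, SIRT or KAT, followed by a number and at most 1 letter, which gave 63 of 35012 symbols. Of these, 61 passed the filter on low counts. KDM4E and KDM4F had 0 counts in all 15 libraries. HepG2 is an established human liver cancer cell line. Its cells received lentivirus with a hairpin against BRG1, the product of SMARCA4 (4 libraries), a hairpin against BRM, the product of SMARCA2 (3 libraries), both (double, 4 libraries) or the control hairpin that the labels call NS (4 libraries). All groups shared polybrene, puromycin selection and harvest 5 days after transduction. The labels give neither the hairpin sequences nor whether replicates were grown and transduced separately. The p-values therefore speak only to the variation among these libraries, which may be technical.

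Histone lysine methylation is written by SET-domain methyltransferases (the KMT and SETD genes) and erased by demethylases (the KDM genes), which are either flavin-dependent amine oxidases or oxygenases with a JmjC domain that use iron and 2-oxoglutarate. Acetyl groups are added by acetyltransferases (KAT) and removed by zinc-dependent deacetylases (HDAC) or NAD-dependent sirtuins (SIRT). The position of a methyl mark sets its usual meaning: methylated lysine 4 of histone H3 (H3K4) marks promoters and enhancers, H3K36 the bodies of transcribed genes, H3K9, H3K27 and H4K20 mostly silenced or compacted chromatin. SWI/SNF complexes move nucleosomes and bind acetylated histones through bromodomains. Several members also have substrates outside histones. The families here follow the gene symbol, which does not by itself show histone activity of each member.

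Total estimated counts per library ranged from 11500149 to 27187991. SMARCA4 averaged 27.8 ± 2.32 CPM (counts after scaling by library size, given as mean ± SD, n = 4) in BRG1 libraries and 46.2 ± 6.09 CPM (n = 4) in double libraries, against 307 ± 6.99 CPM (n = 4) with the NS hairpin. SMARCA2 averaged 4.38 ± 2.22 CPM (n = 3) with the BRM hairpin and 2.57 ± 0.299 CPM (n = 4) in the double knockdown, against 39.2 ± 4.05 CPM (n = 4) with the NS hairpin. It was also lower with the BRG1 hairpin, at a mean of 3.65 CPM per kilobase of transcript against 5.56 with NS. The authors' deposited tables give −0.64 ± 0.23 (log2, estimate ± SE) for SMARCA2 in the BRG1 knockdown. SMARCA4 stood at 59.7 CPM per kilobase in BRM libraries against 53.0 with NS. The libraries numbered 1 and 2 (low-numbered) stood apart from those numbered 3 and 4 (high-numbered) in every group, and 35 of the 61 measured enzymes (57.4%) differed between these sets beside 55.6% of all tested genes. Values within each set are therefore given as low-numbered and then high-numbered. The high-numbered set holds 1 BRM library, so the BRM group is not balanced over the sets. Without a set term, its changes against other groups can include part of the difference between the sets. The 9 hepatocyte markers summed to 6124 to 19947 CPM in BRG1 libraries, 46072 to 49944 in BRM libraries and 10926 to 25095 in double libraries, against 24057 to 37079 in NS libraries. The 3 cholangiocyte markers, nearly all KRT19, summed to 2548 to 4740 CPM in BRG1 libraries, 299 to 815 in BRM libraries and 1037 to 2576 in double libraries, against 693 to 1222 in NS libraries. The 4 stromal markers, mostly COL1A1, summed to 56.6 to 244.63 CPM in BRG1 libraries, 13.5 to 26.0 in BRM libraries and 20.5 to 39.5 in double libraries, against 31.5 to 71.6 in NS libraries. The 3 blood cell markers, nearly all CD68, summed to 30.6 to 58.7 CPM in BRG1 libraries, 54.8 to 74.7 in BRM libraries and 52.7 to 93.6 in double libraries, against 28.9 to 41.2 in NS libraries. The 3 endothelial markers summed to 5.13 to 5.95 CPM in BRG1 libraries, 4.11 to 9.96 in BRM libraries and 3.55 to 4.29 in double libraries, against 4.85 to 6.36 in NS libraries. Within these lists HBB (blood), LUM and COL1A2 (stroma) and CFTR (cholangiocytes) were at or near 0 in every library. Other genes of the same lists were not. Across libraries CD68 ran from 28.4 to 93.3 CPM, COL1A1 from 10.2 to 239 and PDGFRB from 1.77 to 22.8. KRT19 ran from 298 to 4739 CPM and KRT7 from 0.109 to 13.0. The part of these shifts in the results was not tested. In bulk RNA, fewer cells of a type and less RNA per cell cannot be told apart.

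Called changes of at least 2-fold were seen for 2 enzymes with the BRG1 hairpin (HDAC9 and SETD7), 2 with the BRM hairpin (KMT5C and KDM2B) and 4 in the double knockdown (HDAC9, SETD7, KDM2B and SIRT6). With the BRG1 hairpin 5 enzymes rose (HDAC9, SETD7, KDM1B, SIRT6 and HDAC1) and KMT5C fell. With the BRM hairpin 7 fell (KDM2B, KDM3B, KDM2A, KDM1B, KAT6A, SETD5 and KDM5B) and 4 rose (KMT5C, SIRT3, KMT2B and KDM4A). In the double knockdown 7 rose (HDAC9, SETD7, SIRT6, HDAC1, SIRT7, SETD9 and KDM3A) and 7 fell (KDM2B, HDAC10, KDM3B, KDM2A, KDM1A, KAT6A and KDM5B).

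These calls are adjusted p-values under 0.05 from edgeR's quasi-likelihood test, adjusted over all 14621 tested genes. With the BRG1 hairpin 6 of 61 members were called (9.84%), where 22.5% of all tested genes were. With the BRM hairpin 11 were called (18%), beside 13.9% of all tested genes. In the double knockdown 14 were called (23%), beside 21.6% of all tested genes. In this fit, without block or set term, the share of enzymes called was below that of all genes for BRG1. It was near that share for BRM and the double knockdown. The BRM share depended on the fit. DESeq2 called 17 of the 61 for BRM beside 19.3% of all tested genes, and a set term (low- or high-numbered libraries) 28 beside 32%. Each is a larger share than over all tested genes. The median log2 change of the members was −0.01, 0.06 and 0.01 for BRG1, BRM and double, beside 0.02, 0.03 and 0.02 over all tested genes. The median size of change without sign was 0.24, 0.32 and 0.23 on the log2 scale, beside 0.40, 0.38 and 0.41 over all tested genes. The 3 comparisons share the NS libraries.

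Same-numbered BRG1 and NS libraries deviated together. The difference between the sets can also give this, so a pairing by number was not shown. With the replicate number as a block, 13 members were called with the BRG1 hairpin, 8 higher and 5 lower, where 36.4% of all tested genes were. The 7 gained were HDAC5, KAT8, HDAC6 and KDM1A, which were lower, and HDAC7, KDM3A and KDM5B, which were higher, at edgeR adjusted p from 0.00694 for KAT8 to 0.0487 for HDAC6. In the double knockdown the block gave 18 calls (35.6% of all tested genes) and added KMT2B at 0.50 ± 0.13, SIRT5 at 0.47 ± 0.13, SETD5 at −0.48 ± 0.13 and SETD1A at 0.39 ± 0.12 (log2, estimate ± SE, edgeR adjusted p = 0.00745, 0.0118, 0.0118 and 0.0185). With a term for the set (low- or high-numbered) in place of the block, 14 members were called for BRG1, 28 for BRM and 19 for double, where 39.1, 32 and 38.6% of all tested genes were. For BRM these were 17 higher and 11 lower, and the 17 gained were HDAC1, HDAC3, HDAC5, HDAC6, KAT7, KAT14, KDM4B, KDM8, KMT2C, SETD7, SIRT2, SIRT4 and SIRT6, which were higher, and HDAC2, HDAC7, HDAC10 and KMT5B, which were lower (edgeR adjusted p from 0.00122 for HDAC6 to 0.0498 for SIRT4). Beyond the members gained with the block, the set term added SETD9 for BRG1 at 0.43 ± 0.17 and HDAC2 for double at −0.32 ± 0.11 (log2, edgeR adjusted p = 0.0497 and 0.0309). Except where a set term or block is named, the calls given here are without them. The BRM count without such a term fell to 5 without BRM library 2 or NS library 4 and to 7 without NS library 3. Within the low-numbered libraries 17, 19 and 15 members were called for BRG1, BRM and double, where 38.4, 27.7 and 29% of all tested genes were. Within the high-numbered libraries the counts were 10, 20 and 17, where 25.9, 21.1 and 34.3% of all tested genes were. Each called member had the same sign within both sets (6 of 6, 11 of 11 and 14 of 14). The sets are parts of the libraries that gave the calls, so the shared signs are no separate support. The same holds for statements below that the libraries of groups did not overlap. The share of all tested genes without such overlap was not counted.

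**Figure D1:**
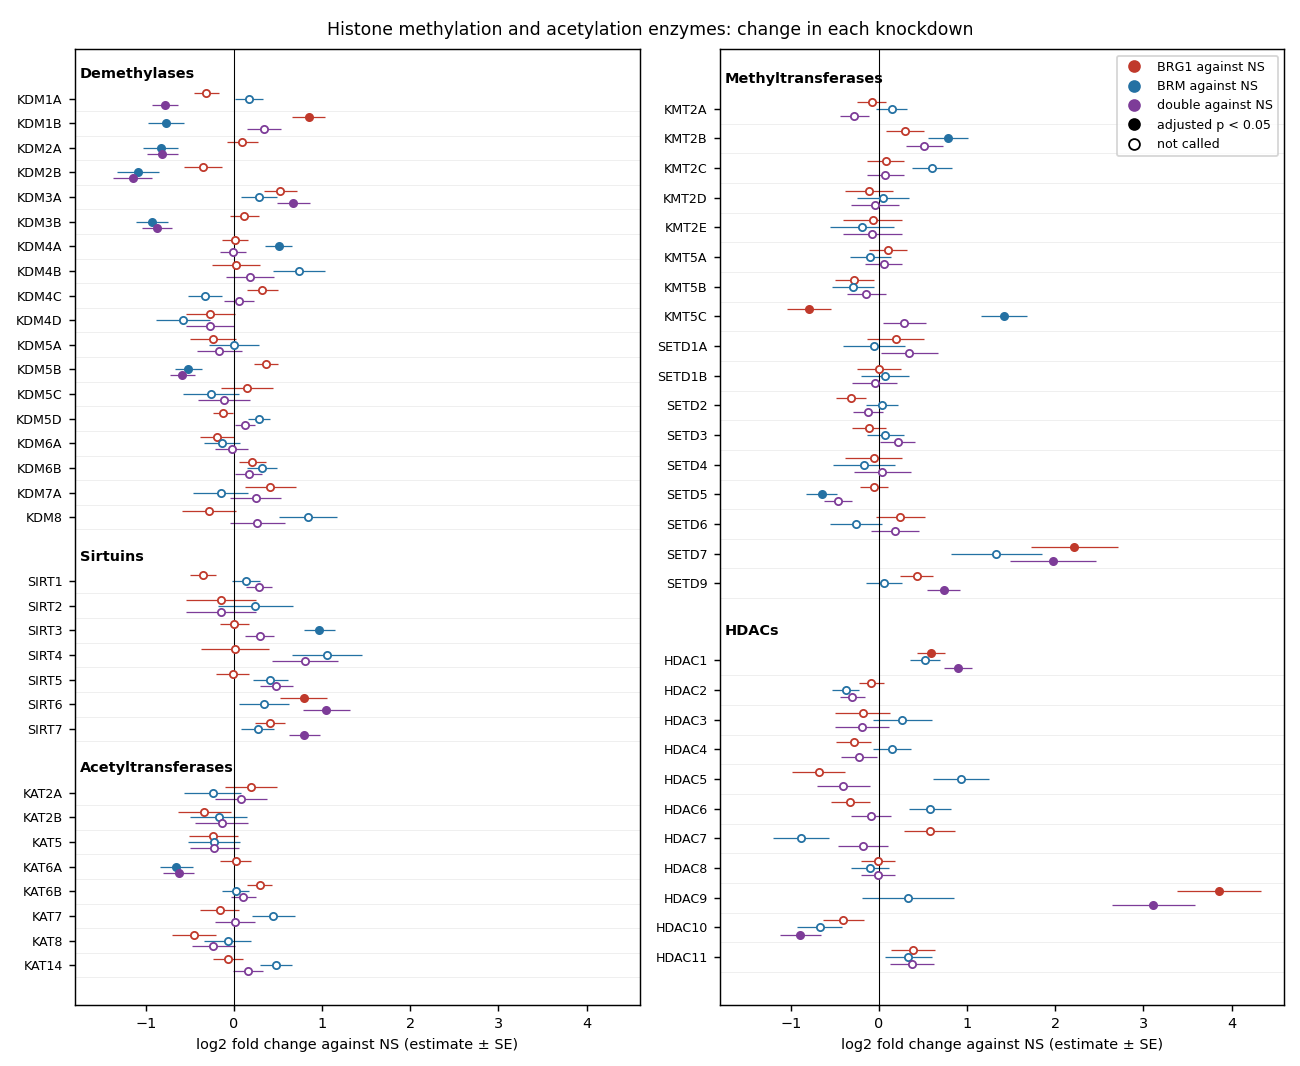
Log2 fold change against NS (x axis, estimate ± SE from edgeR) of the 61 measured enzymes, one row each by family, for the BRG1, BRM and double knockdowns. Filled points have an adjusted p under 0.05. HDAC9 stands farthest to the right at 3.86 for BRG1 and 3.11 for double, and most other points lie within 1 unit of 0.

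Promoter sequences of 3 called enzymes with a single start in the RefSeq table are shown because these genes carry the main patterns below: SETD7 rose with BRG1 depletion, KMT5C changed in opposite directions in the single knockdowns, and KDM5B was lower wherever the BRM hairpin was used. Each window runs from 250 bases before to 50 after the start, in the direction of the gene (GRCh38.p14, RefSeq). Capitals mark a GC box (GGGCGG, or CCGCCC on the other strand) or a CCAAT box (CCAAT, or ATTGG on the other strand). The GC box copies of KDM5B include a pair that overlap each other.
SETD7, chr4:139556170-139556469, minus strand: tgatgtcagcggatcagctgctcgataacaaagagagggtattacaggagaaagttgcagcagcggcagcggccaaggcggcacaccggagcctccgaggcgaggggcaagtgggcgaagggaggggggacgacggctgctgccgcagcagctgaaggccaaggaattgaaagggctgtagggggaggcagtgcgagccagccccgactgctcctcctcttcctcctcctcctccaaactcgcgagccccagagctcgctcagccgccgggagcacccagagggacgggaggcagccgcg
KMT5C, chr19:55339626-55339925, plus strand: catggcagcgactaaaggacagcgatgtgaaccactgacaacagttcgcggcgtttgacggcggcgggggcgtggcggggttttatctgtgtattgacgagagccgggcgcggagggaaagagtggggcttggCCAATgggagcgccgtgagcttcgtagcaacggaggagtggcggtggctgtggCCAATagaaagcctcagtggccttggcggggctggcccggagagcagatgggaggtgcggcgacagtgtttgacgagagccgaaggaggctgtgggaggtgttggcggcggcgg
KDM5B, chr1:202808372-202808671, minus strand: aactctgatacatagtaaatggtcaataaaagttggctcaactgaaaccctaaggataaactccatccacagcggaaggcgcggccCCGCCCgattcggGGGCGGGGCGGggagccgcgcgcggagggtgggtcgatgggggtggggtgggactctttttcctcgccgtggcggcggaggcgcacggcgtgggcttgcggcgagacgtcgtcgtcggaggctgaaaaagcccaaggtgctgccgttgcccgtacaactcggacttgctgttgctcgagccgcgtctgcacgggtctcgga

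The SETD7 window held neither motif, the KMT5C window held 2 CCAAT boxes and no GC box, and the KDM5B window held 3 GC boxes and no CCAAT box. On either strand a GC box was found in 66.7% of the 87 listed promoters of the members (57 of the 63 genes matched the table), beside 45% of 35116 listed promoters of all genes, and a CCAAT box in 31% beside 34.6%. An AP-1 site (TGANTCA) was in 5.75% beside 7.71%, an E-box (CACGTG) in 10.3% beside 7.26% and a TATA box (TATAAA) in 1.15% beside 11.5%. The members' promoters held a median of 28 CG dinucleotides per window, beside 14 over all listed promoters. Genes with several listed starts are counted once per start, and the count table does not tell which start was used. HDAC9, KDM2A and KDM2B have 5, 2 and 4 listed starts. In the GENCODE v29 annotation SETD7 begins at 139606699 and KDM5B at 202809470, both upstream of the windows shown. The motif counts of these genes describe the RefSeq start only.

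Among the 11 HDAC genes, 2 were called for BRG1, 0 for BRM and 3 for double, beside 22.5, 13.9 and 21.6% of all tested genes. HDAC9 and HDAC1 were higher in BRG1 and double libraries and HDAC10 was lower in double libraries. For BRM 6 had an unadjusted p under 0.05 and DESeq2 called 4. HDAC9 (GRCh38 chromosome 7, 18086949 to 19002416, plus strand) is a class IIa deacetylase that acts mainly as a partner of MEF2 transcription factors and of larger corepressor complexes. It was close to silent with the NS hairpin. BRG1 libraries held 7.49, 10.03, 5.003 and 4.67 CPM, BRM libraries 0.645, 0.75001 and 0.369 CPM and double libraries 2.62, 3.04, 7.902 and 2.52 CPM, against 0.6797, 0.4805, 0.277 and 0.372 CPM in NS libraries (14, 6, 3 and 8 counts). Every BRG1 and double library lay above every NS library, whereas BRM and NS libraries overlapped. HDAC9 rose by 3.86 ± 0.48 on the log2 scale with the BRG1 hairpin (edgeR adjusted p = 6.53e-05, 3.86 and 3.78 by set) and by 3.11 ± 0.47 in double libraries (edgeR adjusted p = 0.00030999, 2.23 and 3.90 by set). The BRM value of 0.33 ± 0.53 did not pass (edgeR adjusted p = 0.757). Double library 3 was above the other double libraries, and without it the double change was 2.498 on the log2 scale (edgeR adjusted p = 0.00074).

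HDAC1 (GRCh38 chromosome 1, 32292086 to 32333635, plus strand), a class I catalytic subunit of the NuRD, SIN3 and CoREST corepressors, held 148, 143, 150.3 and 154 CPM in BRG1 libraries, 121, 157 and 147 CPM in BRM libraries and 169.9, 163, 223 and 178 CPM in double libraries, against 85.6, 82.003, 117 and 110.4 CPM in NS libraries. All knockdown libraries were above all NS libraries. The log2 change was 0.59 ± 0.16 for BRG1 (edgeR adjusted p = 0.0133, 0.80 and 0.38 by set) and 0.90 ± 0.16 for double (adjusted p = 0.001002, 0.99 and 0.77 by set), while the BRM change of 0.52 ± 0.17 missed the threshold (edgeR adjusted p = 0.0518) and passed it with a set term, at 0.57 ± 0.13 (edgeR adjusted p = 0.00271). The BRG1 call was lost without NS library 2 (edgeR adjusted p = 0.0669). Its close paralog HDAC2 averaged 144 ± 15.4, 118 ± 10.2 and 124 ± 19.997 CPM in BRG1, BRM and double libraries, against 153 ± 7.35 CPM in NS libraries (SD, n = 4, 3, 4 and 4), and was not called in any of the 3 comparisons. With a set term it was called lower for BRM at −0.41 ± 0.12 and for double at −0.32 ± 0.11 (log2, edgeR adjusted p = 0.016 and 0.0309). Reads shared between such paralogs are divided by estimation.

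HDAC10 (GRCh38 chromosome 22, 50245183 to 50251405, minus strand), a class IIb enzyme known as a polyamine deacetylase, held 10.8, 12.3, 12.1 and 11.8 CPM in double libraries, 15.2, 17.8, 19.1 and 13.8 CPM in BRG1 libraries and 15.8, 6.95 and 18.3 CPM in BRM libraries, against 22.4, 25.1, 20.5 and 19.3 CPM in NS libraries. It fell by 0.89 ± 0.24 on the log2 scale in the double knockdown (edgeR adjusted p = 0.0139, −1.04 and −0.78 by set). The single knockdowns, at −0.41 ± 0.23 for BRG1 and −0.67 ± 0.26 for BRM, did not pass (edgeR adjusted p = 0.244 and 0.09797), although no knockdown library reached the NS range. With a set term the BRM value was −0.67 ± 0.24 (edgeR adjusted p = 0.0441). HDAC10 shares exon sequence with MAPK12 on the same strand, so its value is uncertain. The 6 HDAC genes with an unadjusted p under 0.05 for BRM stood beside 27.2% of all tested genes, and the 4 that DESeq2 called beside 19.3%. The class IIa genes HDAC5 and HDAC7 and the tubulin deacetylase HDAC6 had BRM values of 0.93 ± 0.32, −0.88 ± 0.32 and 0.57 ± 0.24 (edgeR adjusted p = 0.0699, 0.08097 and 0.131). With a set term 7 of the 11 passed for BRM, beside 32% of all tested genes: HDAC5 at 0.98 ± 0.19, HDAC7 at −0.85 ± 0.22, HDAC6 at 0.64 ± 0.12 and HDAC3 at 0.36 ± 0.13 (log2, edgeR adjusted p = 0.00131, 0.00821, 0.00122 and 0.0484), with HDAC1, HDAC2 and HDAC10 as given above.

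Of the 7 sirtuins, 1 was called for BRG1, 1 for BRM and 2 for double, beside 22.5, 13.9 and 21.6% of all tested genes. SIRT6 and SIRT7 were higher in the double knockdown, SIRT6 also with the BRG1 hairpin, and SIRT3 was higher with the BRM hairpin. SIRT6 (GRCh38 chromosome 19, 4174109 to 4182604, minus strand), a nuclear H3K9 deacetylase that restrains glycolytic genes, held 29.6, 25.2, 41.9 and 39.5 CPM in BRG1 libraries, 17.97, 20.1 and 36.9 CPM in BRM libraries and 28.4, 31.8, 52.05 and 50.5 CPM in double libraries, against 17.4, 18.02, 22.4 and 21.1 CPM in NS libraries. Every BRG1 and double library exceeded every NS library, and the high-numbered libraries were the higher ones in each group. It rose by 1.05 ± 0.27 on the log2 scale in the double knockdown (edgeR adjusted p = 0.0111, 0.77 and 1.19 by set). The BRG1 change of 0.79 ± 0.26 (adjusted p = 0.0447, 0.63 and 0.86 by set) was a borderline call that was lost when any 1 of 12 of the 15 libraries was left out, the exceptions being BRG1 library 2, BRM library 3 and double library 1 (edgeR adjusted p from 0.0513 to 0.121 without each of the other libraries).

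SIRT7 (GRCh38 chromosome 17, 81911939 to 81921323, minus strand), a nucleolar H3K18 deacetylase linked to ribosomal RNA transcription, held 54.3, 50.5, 83.1 and 62.2 CPM in double libraries, 44.7, 45.03, 52.6 and 48.8 CPM in BRG1 libraries and 38.9, 38.5 and 52.5 CPM in BRM libraries, against 37.8, 42.4, 32.4 and 31.5 CPM in NS libraries. The double libraries did not overlap the NS libraries. SIRT7 rose by 0.80 ± 0.17 (log2, edgeR adjusted p = 0.004498, 0.39 and 1.14 by set), and its exons overlap MAFG on the same strand. SIRT3 (GRCh38 chromosome 11, 215458 to 236931, minus strand), the main deacetylase of the mitochondrial matrix, held 25.4, 30.95 and 34.8 CPM in BRM libraries, 14.4, 13.9, 17.5 and 16.5 CPM in BRG1 libraries and 16.7, 18.9, 17.6 and 22.7 CPM in double libraries, against 18.7, 16.98, 13.1 and 13.3 CPM in NS libraries. All BRM libraries were above all libraries of the other groups. SIRT3 rose by 0.97 ± 0.18 on the log2 scale with the BRM hairpin (edgeR adjusted p = 0.00256, 0.66 and 1.31 by set), beside 0.00 ± 0.17 for BRG1 and 0.29 ± 0.17 for double (edgeR adjusted p = 0.993 and 0.252). Its exons overlap PSMD13 on the opposite strand.

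Of the 17 methyltransferases, 1 rose and 1 fell for BRG1, 2 rose and 1 fell for BRM, and 2 rose for double, beside 22.5, 13.9 and 21.6% of all tested genes called in either direction. SETD7 (GRCh38 chromosome 4, 139495941 to 139606699, minus strand) places 1 methyl group on H3K4 and also methylates many proteins outside chromatin. It held 33.2, 45.7, 10.7 and 11.99 CPM in BRG1 libraries, 10.2, 21.6 and 9.41 CPM in BRM libraries and 19.1, 15.5, 32.2 and 18.8 CPM in double libraries, against 7.86, 7.13, 3.14 and 3.62 CPM in NS libraries. All knockdown libraries were above all NS libraries, with a wide spread between the sets. SETD7 rose by 2.22 ± 0.49 on the log2 scale for BRG1 (edgeR adjusted p = 0.00483, 2.39 and 1.69 by set) and by 1.97 ± 0.49 for double (adjusted p = 0.00991, 1.20 and 2.85 by set). The BRM change of 1.33 ± 0.51 did not pass (edgeR adjusted p = 0.103, 1.10 and 1.37 by set), and with a set term it was 1.25 ± 0.43 and passed (edgeR adjusted p = 0.039999).

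KMT5C (GRCh38 chromosome 19, 55339853 to 55348120, plus strand), which adds further methyl groups to H4K20 in heterochromatin, was called in opposite directions in the single knockdowns. It held 3.08, 3.72, 4.39 and 2.55 CPM in BRG1 libraries, 12.97, 12.9 and 21.9 CPM in BRM libraries and 5.68, 7.89, 6.53 and 9.04 CPM in double libraries, against 5.001, 6.41, 7.195 and 5.34 CPM in NS libraries. All BRM libraries lay above and all BRG1 libraries below the NS range, and the double libraries overlapped it. KMT5C fell by 0.79 ± 0.25 on the log2 scale with the BRG1 hairpin (edgeR adjusted p = 0.0312, −0.74 and −0.87 by set) and rose by 1.42 ± 0.26 with the BRM hairpin (adjusted p = 0.00232, 1.19 and 1.74 by set), while the double value was 0.29 ± 0.24 (edgeR adjusted p = 0.455). The BRG1 call was lost without BRG1 library 1, BRG1 library 4 or NS library 3 (edgeR adjusted p from 0.0559 to 0.0897). The other H4K20 enzymes, KMT5A, which adds the first methyl group, and KMT5B, were not called in the 3 comparisons, except KMT5B for BRM with a set term at −0.37 ± 0.13 (edgeR adjusted p = 0.0445).

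KMT2B (GRCh38 chromosome 19, 35718019 to 35738878, plus strand), an H3K4 methyltransferase of the MLL type, held 109.5, 85.1 and 129 CPM in BRM libraries, 60.5, 72.9, 88.3 and 86.6 CPM in BRG1 libraries and 76.7, 66.5, 91.9 and 124 CPM in double libraries, against 52.4, 52.6, 75.7 and 69.9 CPM in NS libraries. The BRM libraries did not overlap the NS libraries, and KMT2B rose by 0.78 ± 0.23 (log2, edgeR adjusted p = 0.0347, 0.89 and 0.74 by set). That call was lost when any 1 of 10 libraries was left out, namely NS 1, 2 and 4, BRG1 2 and 4, all 3 BRM libraries and double 1 and 3 (edgeR adjusted p from 0.0533 to 0.160255). The exons of KMT2B overlap IGFLR1 on the opposite strand. The other 4 KMT2 genes, KMT2A, KMT2C, KMT2D and KMT2E, were not called, except KMT2C for BRM with a set term at 0.52 ± 0.19 (edgeR adjusted p = 0.0497).

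SETD5 (GRCh38 chromosome 3, 9397615 to 9479240, plus strand), a SET-domain protein found with the HDAC3 corepressor, held 71.1, 56.7 and 43.9 CPM in BRM libraries, 85.99, 101, 80.6 and 77.9 CPM in BRG1 libraries and 76.3, 71.97, 57.8 and 54.1 CPM in double libraries, against 86.4, 89.6, 90.7 and 92.2 CPM in NS libraries. The BRM and double libraries were all below the NS libraries. SETD5 fell by 0.65 ± 0.18 with the BRM hairpin (log2, edgeR adjusted p = 0.02604, −0.46 and −1.14 by set), a call lost without BRM library 2 or 3 or NS library 3 or 4 (edgeR adjusted p from 0.0532 to 0.071006), and had a double value of −0.46 ± 0.16 (adjusted p = 0.0561). SETD9 (GRCh38 chromosome 5, 56909260 to 56925532, plus strand) was a low gene with 6.18, 7.08, 6.78 and 4.81 CPM in double libraries, 5.05, 5.32, 4.83 and 4.86 CPM in BRG1 libraries and 3.95, 4.0001 and 3.69 CPM in BRM libraries, against 4.32, 4.004, 3.23 and 3.35 CPM in NS libraries. It rose by 0.74 ± 0.19 in the double knockdown (log2, edgeR adjusted p = 0.0117, 0.67 and 0.77 by set), which was lost without double library 2 or 3 (adjusted p from 0.0533 to 0.0571), and its exons overlap a noncoding gene on the opposite strand.

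Of the 18 measured demethylases, 5 fell and 1 rose with the BRM hairpin, beside 6.26% of all tested genes lower and 7.66% higher. In the double knockdown 5 fell and 1 rose, beside 9.9% of all tested genes lower and 11.8% higher. With the BRG1 hairpin 1 rose and none fell by edgeR (12.5% higher and 9.97% lower over all tested genes), 4 of the 18 had an unadjusted p under 0.05 (33.7% of all tested genes), and DESeq2 called 2 (27.2%). KDM2A, KDM2B, KDM3B and KDM5B fell in BRM and double libraries and were not called in BRG1 libraries without a block or set term. All 4 also differed in the direct comparison of BRG1 with BRM given below. The replicate block added KDM5B at 0.37 ± 0.13, KDM3A at 0.49 ± 0.17 and KDM1A at −0.31 ± 0.11 for BRG1 (log2, edgeR adjusted p = 0.0405, 0.0334 and 0.0439, beside 36.4% of all tested genes).

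KDM2A (GRCh38 chromosome 11, 67119269 to 67258087, plus strand) and KDM2B (GRCh38 chromosome 12, 121429097 to 121581015, minus strand) are JmjC demethylases of H3K36 whose zinc finger binds unmethylated CpG islands, and KDM2B also brings a variant Polycomb complex there. KDM2A held 37.6, 40.5 and 42.8 CPM in BRM libraries, 40.2, 32.04, 40.1 and 50.9 CPM in double libraries and 61.7, 75.01, 80.96 and 88.4 CPM in BRG1 libraries, against 61.6, 56.6, 83.7 and 85.1 CPM in NS libraries. It fell by 0.83 ± 0.20 on the log2 scale with the BRM hairpin (edgeR adjusted p = 0.0117, −0.60 and −1.06 by set) and by 0.81 ± 0.18 in double libraries (adjusted p = 0.00473, −0.71 and −0.94 by set), beside 0.09 ± 0.18 for BRG1 (edgeR adjusted p = 0.774). BRM and double libraries of KDM2A did not overlap the NS libraries, whereas BRG1 libraries lay within the NS range or just above it.

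KDM2B held 25.2, 27.8 and 34.4 CPM in BRM libraries, 27.7, 25.7, 26.7 and 31.98 CPM in double libraries and 41.97, 45.9, 53.3 and 53.6 CPM in BRG1 libraries, against 42.5, 44.1, 80.1 and 82.4 CPM in NS libraries. The high-numbered NS libraries were well above the low-numbered ones. It fell by 1.09 ± 0.24 on the log2 scale with the BRM hairpin (edgeR adjusted p = 0.00744, −0.71 and −1.33 by set) and by 1.15 ± 0.22 in double libraries (adjusted p = 0.00164, −0.70 and −1.52 by set). BRM and double libraries were below all NS libraries. The BRG1 value was −0.35 ± 0.21 (edgeR adjusted p = 0.269), with 0.02 and −0.65 by set. KDM2B shares exon sequence with RNF34 and a noncoding gene on the opposite strand.

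KDM3A and KDM3B are JmjC demethylases of H3K9, and they were called in opposite directions in the double knockdown. KDM3B (GRCh38 chromosome 5, 138352596 to 138437028, plus strand) held 40.3, 41.8 and 45.05 CPM in BRM libraries, 45.8, 35.95, 41.2 and 53.6 CPM in double libraries and 85.6, 96.6, 78.3 and 90.01 CPM in BRG1 libraries, against 69.7, 62.7, 94.3 and 96.4 CPM in NS libraries. The BRM and double libraries did not reach the NS range. KDM3B fell by 0.93 ± 0.18 (BRM, log2, edgeR adjusted p = 0.00384, −0.69 and −1.17 by set) and by 0.87 ± 0.17 (double, adjusted p = 0.00177, −0.70 and −1.06 by set), beside 0.12 ± 0.17 for BRG1 (edgeR adjusted p = 0.687).

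KDM3A (GRCh38 chromosome 2, 86440647 to 86492716, plus strand), itself a hypoxia-inducible gene, held 83.96, 74.7, 79.6 and 59.4 CPM in double libraries, 80.4, 84.1, 49.8 and 54.3 CPM in BRG1 libraries and 59.6, 63.5 and 47.8 CPM in BRM libraries, against 46.2, 40.4, 50.7 and 49.7 CPM in NS libraries. It rose by 0.67 ± 0.19 in the double knockdown (log2, edgeR adjusted p = 0.0183, 0.87 and 0.42 by set), a call lost without double library 1, 2 or 3 or NS library 2 (edgeR adjusted p from 0.0549 to 0.0766). The BRG1 value of 0.52 ± 0.19 (edgeR adjusted p = 0.05805) was 0.92 and 0.01 by set, so the difference was seen in the low-numbered libraries.

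Of the H3K4 demethylases, KDM5B fell wherever the BRM hairpin was used, KDM1A fell in the double knockdown and KDM1B was called in opposite directions in the single knockdowns. KDM5B (GRCh38 chromosome 1, 202724495 to 202809470, minus strand), a JmjC enzyme that removes methyl groups at promoters, held 42.8, 51.001 and 49.8 CPM in BRM libraries, 43.6, 41.3, 47.4 and 50.3 CPM in double libraries and 91.2, 103, 72.9 and 85.7 CPM in BRG1 libraries, against 63.8, 61.3, 68.9 and 80.3 CPM in NS libraries. BRM and double libraries lay below all NS libraries. It fell by 0.52 ± 0.15 on the log2 scale with the BRM hairpin (edgeR adjusted p = 0.0365, −0.41 and −0.67 by set) and by 0.59 ± 0.14 in double libraries (adjusted p = 0.00807, −0.56 and −0.66 by set), beside 0.36 ± 0.14 for BRG1 (edgeR adjusted p = 0.07899). The BRM call was lost without any 1 of the BRM libraries or without NS library 1, 3 or 4 (edgeR adjusted p from 0.0521 to 0.101).

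KDM1A (GRCh38 chromosome 1, 23019443 to 23083689, plus strand), the flavin-dependent enzyme LSD1 of the CoREST complex, held 101, 98.4, 98.3 and 121 CPM in double libraries, 132, 137, 152 and 160.1 CPM in BRG1 libraries and 185, 221 and 202 CPM in BRM libraries, against 168, 148, 203 and 202 CPM in NS libraries. The double libraries were below every other library of the study. KDM1A fell by 0.79 ± 0.14 on the log2 scale in the double knockdown (edgeR adjusted p = 0.00139, −0.67 and −0.93 by set), beside −0.31 ± 0.14 for BRG1 and 0.17 ± 0.16 for BRM (edgeR adjusted p = 0.141 and 0.5503).

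KDM1B (GRCh38 chromosome 6, 18155329 to 18223853, plus strand), the related enzyme LSD2, held 64.2, 64.98, 49.4 and 60.4 CPM in BRG1 libraries, 24.1, 16.8 and 17.6 CPM in BRM libraries and 44.2, 37.4, 45.8 and 40.7 CPM in double libraries, against 25.2, 26.1, 39.02 and 42.5 CPM in NS libraries. All BRG1 libraries lay above and all BRM libraries below the NS range. KDM1B rose by 0.85 ± 0.19 on the log2 scale with the BRG1 hairpin (edgeR adjusted p = 0.00496, 1.33 and 0.39 by set) and fell by 0.77 ± 0.21 with the BRM hairpin (adjusted p = 0.0239, −0.34 and −1.30 by set), with 0.34 ± 0.19 in the double knockdown (edgeR adjusted p = 0.227). The BRM call was lost without BRM library 2 or 3 or NS library 3 or 4 (edgeR adjusted p from 0.063 to 0.0983).

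KDM4A (GRCh38 chromosome 1, 43650158 to 43705515, plus strand), a JmjC demethylase of H3K9 and H3K36, held 52.4, 73.4 and 73.03 CPM in BRM libraries, 46.4, 46.99, 46.5 and 48.4 CPM in BRG1 libraries and 43.2, 39.1, 51.8 and 50.5 CPM in double libraries, against 44.6, 39.8, 52.3 and 50.004 CPM in NS libraries. BRM library 1 was just above the highest NS library. The BRM change of 0.51 ± 0.16 (log2, edgeR adjusted p = 0.0443, 0.58 and 0.43 by set) was the call lost most often: it did not pass without each library other than BRM library 1 (adjusted p from 0.0521 to 0.267). The exons of KDM4A overlap its antisense gene KDM4A-AS1 and a gene on the same strand.

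Of the 8 acetyltransferases edgeR called 0 for BRG1, where 0 had an unadjusted p under 0.05 and DESeq2 called 0, and 1 each for BRM and double, beside 22.5, 13.9 and 21.6% of all tested genes. KAT8 was called lower for BRG1 with the replicate block, at −0.48 ± 0.12 (log2, edgeR adjusted p = 0.00694, beside 36.4% of all tested genes). KAT7 and KAT14 were called higher for BRM with a set term, at 0.54 ± 0.11 and 0.46 ± 0.15 (edgeR adjusted p = 0.00203 and 0.033, beside 32% of all tested genes). KAT6A (GRCh38 chromosome 8, 41929479 to 42052026, minus strand), the MOZ acetyltransferase of the MYST family, held 36.7, 36.8 and 29.3 CPM in BRM libraries, 30.99, 33.2, 36.6 and 38.7 CPM in double libraries and 47.9, 66.02, 46.99 and 57.5 CPM in BRG1 libraries, against 45.01, 42.5, 62.5 and 65.5 CPM in NS libraries. BRM and double libraries were below all NS libraries. KAT6A fell by 0.66 ± 0.19 on the log2 scale with the BRM hairpin (edgeR adjusted p = 0.0328, −0.25 and −1.21 by set) and by 0.63 ± 0.17 in double libraries (adjusted p = 0.0179, −0.45 and −0.82 by set), beside 0.02 ± 0.17 for BRG1 (edgeR adjusted p = 0.958). The BRM call was lost without BRM library 2 or 3 or NS library 3 or 4 (adjusted p from 0.0651 to 0.0984) and the double call without NS library 3 or 4 (edgeR adjusted p = 0.0593 to 0.0621).

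**Figure D2:**
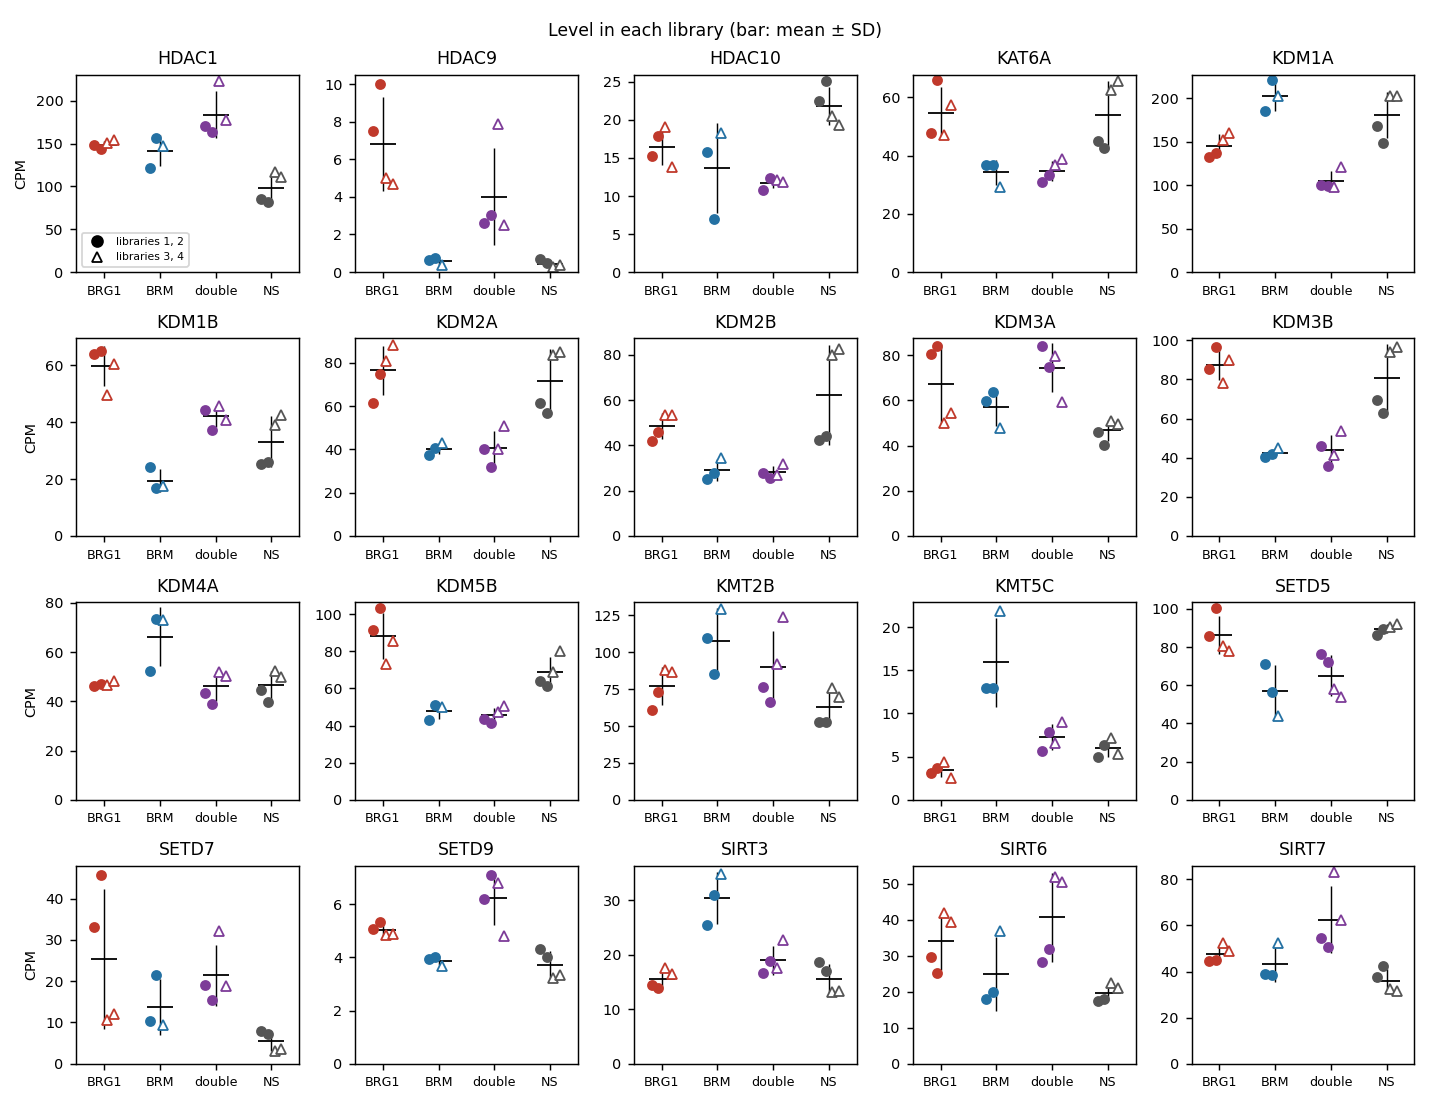
CPM (y axis, from 0) of the 20 enzymes called in at least 1 knockdown against NS, in every library of the BRG1, BRM, double and NS groups (x axis). Filled circles are libraries 1 and 2, open triangles libraries 3 and 4, and bars give the mean ± SD. KDM2A, KDM2B, KDM3B, KDM5B and KAT6A sit low in the BRM and double groups, and HDAC9 is near 0 in the BRM and NS groups.

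In the 3 comparisons, without block or set term, 41 measured enzymes were called in none. Among demethylases these were KDM4B, KDM4C, KDM4D, KDM5A, KDM5C, KDM5D, KDM6A, KDM6B, KDM7A and KDM8, with log2 changes from −0.58 (KDM4D, BRM) to 0.84 (KDM8, BRM). They include both H3K27 demethylases, KDM6A and KDM6B. Among methyltransferases they were KMT2A, KMT2C, KMT2D, KMT2E, KMT5A, KMT5B, SETD1A, SETD1B, SETD2, SETD3, SETD4 and SETD6, from −0.31 (SETD2, the H3K36 enzyme, BRG1) to 0.60 (KMT2C, BRM). The 8 deacetylases HDAC2 to HDAC8 and HDAC11 ran from −0.88 (HDAC7, BRM) to 0.93 (HDAC5, BRM). SIRT1, SIRT2, SIRT4 and SIRT5 ran from −0.36 (SIRT1, BRG1) to 1.06 (SIRT4, BRM, at a mean of 1.95 CPM in BRM libraries against 0.9097 CPM in NS libraries). KAT2A, KAT2B, KAT5, KAT6B, KAT7, KAT8 and KAT14 ran from −0.45 (KAT8, BRG1) to 0.48 (KAT14, BRM). The SE of a member's log2 change had a median of 0.21 for BRG1, 0.24 for BRM and 0.22 for double, and the smallest called change was 0.59, 0.51 and 0.59, and no smaller difference passed.

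Set directly against each other, the BRG1 and BRM knockdowns differed at 20 of 61 enzymes (32.8%), beside 33.9% of all tested genes (edgeR, adjusted p under 0.05). Of these, 10 were higher with the BRG1 hairpin and 10 lower. The demethylases gave 10 of the 20. Higher with the BRG1 hairpin were HDAC9 at 3.53 ± 0.52, KDM1B at 1.62 ± 0.21, HDAC7 at 1.46 ± 0.32, KDM3B at 1.05 ± 0.18, KDM2A at 0.93 ± 0.20, KDM5B at 0.88 ± 0.16, KDM2B at 0.74 ± 0.24, KAT6A at 0.67 ± 0.19, KDM4C at 0.65 ± 0.19 and SETD5 at 0.59 ± 0.18 (log2, BRG1 over BRM, estimate ± SE). Lower were KMT5C at −2.21 ± 0.26, HDAC5 at −1.62 ± 0.32, KDM8 at −1.12 ± 0.33, SIRT3 at −0.96 ± 0.18, HDAC6 at −0.90 ± 0.24, KAT14 at −0.54 ± 0.18, SIRT1 at −0.50 ± 0.16, KDM4A at −0.49 ± 0.16, KDM1A at −0.48 ± 0.15 and the Y-linked H3K4 demethylase KDM5D at −0.40 ± 0.12. The smallest edgeR adjusted p was 2.18e-05, for KMT5C.

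The means behind the pair of class IIa deacetylases were opposite: HDAC5 averaged 35.4 ± 5.68 CPM in BRG1 libraries and 108 ± 51.6 CPM in BRM libraries, while HDAC7 averaged 53.7 ± 1.46 CPM in BRG1 libraries and 19.5 ± 10.4 CPM in BRM libraries (SD, n = 4 BRG1 and 3 BRM libraries). The edgeR adjusted p for BRG1 against BRM was 0.00143 for HDAC5 and 0.00288 for HDAC7. All 20 differences had the same sign within both sets, which are parts of the libraries that gave the calls and so no separate support. The count fell to 13 without BRM library 2. Calls lost when 1 library was left out were those of HDAC6 and KAT6A (without BRM 3, edgeR adjusted p = 0.0659 and 0.0674), KDM4C (BRM 2 or 3), KDM8 (BRG1 2 or BRM 3), SETD5 (BRG1 2, BRM 2 or BRM 3), SIRT1 (BRG1 1, BRM 1 or BRM 2), KDM4A (BRG1 1, BRM 2 or BRM 3), KDM1A (BRG1 1, BRG1 2, BRM 2 or BRM 3), KAT14 (BRG1 2, BRG1 3, BRG1 4 or BRM 2) and KDM2B (BRM 1, BRM 2, BRG1 3 or BRG1 4), with edgeR adjusted p up to 0.117. With the replicate number as a block 31 members passed (49.4% of all tested genes), 12 higher and 19 lower. The 11 gained were SETD6 and SIRT6, which were higher, and HDAC3, HDAC4, KAT7, KAT8, KDM4B, KMT2B, KMT2C, SIRT2 and SIRT4, which were lower.

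**Figure D3:**
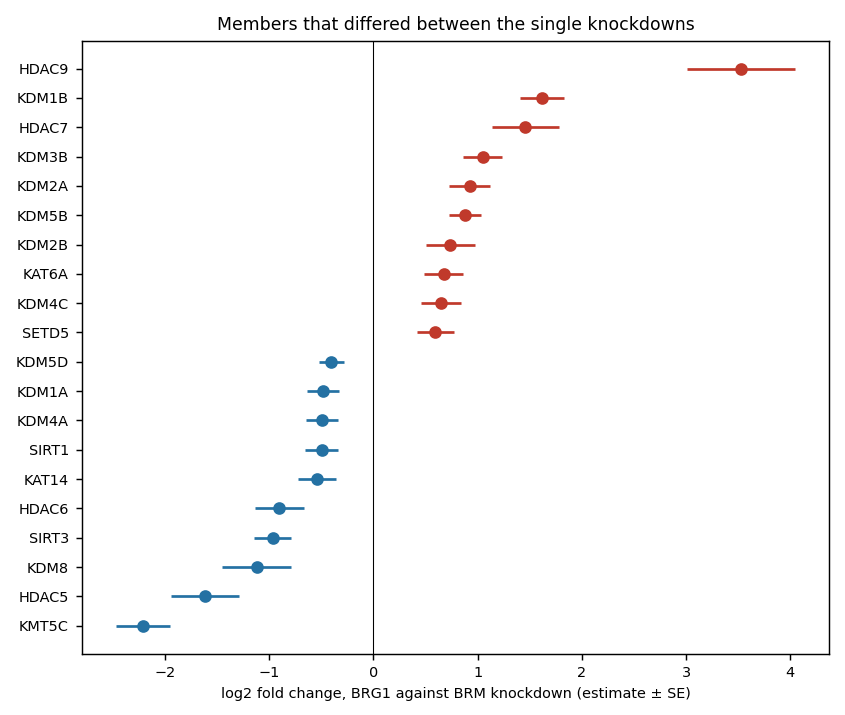
Log2 fold change of the BRG1 knockdown over the BRM knockdown (x axis, estimate ± SE) for the 20 enzymes that differed between them, ordered by size. HDAC9 (3.53) and KMT5C (−2.21) mark the 2 ends.

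The interaction, which asks whether the double knockdown departs from the sum of the single log2 changes, called no member in edgeR (0 of 61, beside 0.499% of all tested genes) or in DESeq2 (0, beside 3.24%). At an unadjusted p under 0.05 there were 5 members, where 11.9% of all tested genes passed: KDM1A at −0.64 ± 0.21, KDM4A at −0.54 ± 0.21, SETD7 at −1.57 ± 0.69 and SIRT3 at −0.68 ± 0.25 below the sum, and SIRT1 at 0.50 ± 0.22 above it (edgeR adjusted p from 0.204 to 0.374). Within the low-numbered libraries 4 members passed, all below the sum (10.9% of all tested genes in either direction), namely SETD7 at −2.28 ± 0.46, HDAC9 at −1.87 ± 0.47, KDM1A at −0.79 ± 0.20 and KDM5B at −0.78 ± 0.20. Within the high-numbered libraries the values of SETD7 and HDAC9 were −0.21 and 0.07 (edgeR adjusted p = 0.805 and 0.981).

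Per kilobase of the longest coding transcript of GENCODE v29, an approximate scale because the transcripts counted are not known, the most abundant enzymes with the NS hairpin were KDM1A at 58.97 CPM per kilobase, HDAC1 at 46.4, HDAC3 at 38.1 and the GCN5 acetyltransferase KAT2A at 33.4. The lowest were HDAC9 at 0.0466, KAT2B at 0.534, KDM4D at 0.655, SETD7 at 0.738 and SIRT4 at 0.748, and the median of the 61 was 6.86. HDAC9 and SETD7, the members with the largest called changes, were thus among the 4 lowest. HDAC9 stood at 0.701 CPM per kilobase with the BRG1 hairpin and 0.414 in the double knockdown, against 0.0466 with NS. The levels of the leading pair changed in opposite directions in the double knockdown. HDAC1 stood at 70.1, 66.7 and 86.4 CPM per kilobase in BRG1, BRM and double libraries, and KDM1A at 47.4, 66.3 and 34.2.

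**Figure D4:**
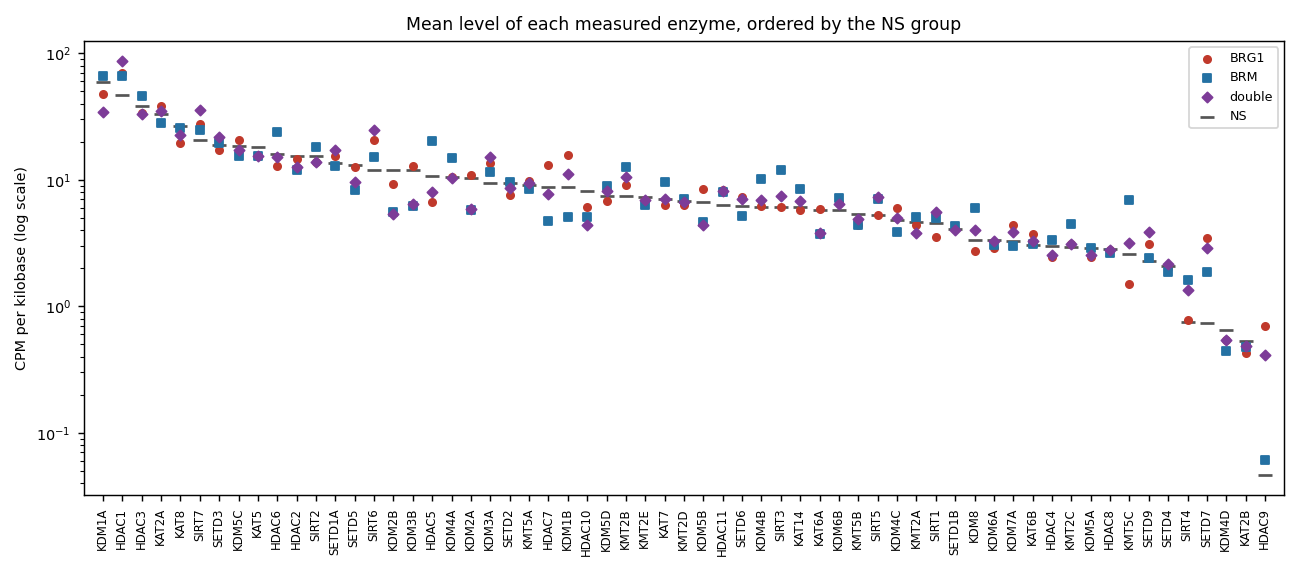
Mean CPM per kilobase (y axis, log scale) of the 61 measured enzymes, ordered by the NS group, with the BRG1, BRM and double groups as points and NS as dashes. SETD7 and HDAC9, at the low end, show the widest gaps between BRG1 or double and NS.

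Of 105 measured genes in 7 lists of related enzymes and complex partners, 20 were called for BRG1 (19%), 9 for BRM (8.57%) and 17 in the double knockdown (16.2%), where 22.5, 13.9 and 21.6% of all tested genes were. Among other JmjC proteins 2 of 9 rose and 1 fell with the BRG1 hairpin: JARID2, a Polycomb cofactor without demethylase activity, rose by 1.56 ± 0.21 (113 against 38.3 mean CPM, BRG1 against NS), JMJD1C by 0.82 ± 0.22, and HR fell by 2.79 ± 0.44 (edgeR adjusted p = 0.000146, 0.0151 and 0.00045). In the double knockdown JARID2 rose by 1.12 ± 0.21 and HR fell by 2.34 ± 0.43 (edgeR adjusted p = 0.00161 and 0.00136). Among other lysine methyltransferases the H3K9 enzyme SUV39H2 fell by 0.91 ± 0.16 with the BRG1 hairpin and by 0.73 ± 0.16 in the double knockdown (edgeR adjusted p = 0.000948 and 0.00423), while the H3K9 enzyme EHMT1 rose by 0.51 ± 0.14, 0.54 ± 0.15 and 0.43 ± 0.14 in the BRG1, BRM and double knockdowns (edgeR adjusted p = 0.0146, 0.0243 and 0.0348).

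In single directions, 12.5% of all tested genes rose and 9.97% fell for BRG1, 7.66% rose and 6.26% fell for BRM, and 11.8% rose and 9.9% fell for double, and the counts of each list stand beside these shares. Of 13 partners of the KMT2 and SETD1 enzymes, 4 fell and 0 rose with the BRG1 hairpin, 1 rose with the BRM hairpin (WDR82, by 0.48 ± 0.15, edgeR adjusted p = 0.0419), and edgeR called 0 in the double knockdown, where 1 had an unadjusted p under 0.05 and DESeq2 called 1. Those that fell with the BRG1 hairpin included ASH2L, a core subunit, by 0.66 ± 0.17, and PAGR1, by 0.62 ± 0.15 (edgeR adjusted p = 0.011 and 0.00699). Of 23 measured HDAC corepressor partners, 3 rose and 2 fell with the BRG1 hairpin, 1 rose and 3 fell with the BRM hairpin, and 3 rose and 4 fell in the double knockdown. RBBP4, a histone chaperone subunit shared by HDAC1 complexes, fell in all 3 comparisons, by 0.45 ± 0.11, 0.87 ± 0.13 and 0.86 ± 0.11 for BRG1, BRM and double (edgeR adjusted p = 0.0101, 0.00053 and 0.000126). CHD4, the NuRD remodelling ATPase, fell by 0.71 ± 0.14 in the double knockdown (edgeR adjusted p = 0.00249). Its paralog CHD3 rose by 1.51 ± 0.29 with the BRM hairpin (edgeR adjusted p = 0.00318). Other genes of this list went both ways. MTA2 changed by 0.79 ± 0.18 in the double knockdown (edgeR adjusted p = 0.00622). With the BRG1 hairpin TBL1X changed by −1.15 ± 0.23 and DNTTIP1 by 0.86 ± 0.19 (edgeR adjusted p = 0.00228 and 0.00395). With the BRM hairpin GATAD2A changed by −0.70 ± 0.14 (edgeR adjusted p = 0.00558). Of 29 KAT complex partners, 2 rose and 1 fell for BRG1, 1 rose for BRM and 2 rose for double. The p300 and CBP acetyltransferases EP300 and CREBBP belong to the list of 8 other acetyltransferases, where the called genes were CLOCK and GTF3C4 for BRG1 and GTF3C4 for double, all lower.

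In the authors' deposited tables, at an adjusted p under 0.05, 8 members were called for BRG1, 16 for BRM and 16 for double, beside 24.6, 18.2 and 22.3% of the genes given an adjusted p. The tables do not name the group each knockdown was set against. All 6, 11 and 14 members called here were also called in the authors' deposited tables, with the same sign. The members called in the authors' deposited tables alone were KDM3A and SIRT1 for BRG1, HDAC1, HDAC2, HDAC7, KDM5D and SIRT4 for BRM, and HDAC2 and SETD5 for double. For HDAC9 the authors' deposited tables give 3.84 ± 0.49 for BRG1 and 3.11 ± 0.50 for double (log2, estimate ± SE).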

How the data were processed

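mRNA-seq libraries were made from total RNA of HepG2 cells. Per the submitters' processing notes, the tools were kallisto and DESeq2 with GRCh38. Their roles and versions, the annotation and any use of strand are not given in the sources. The deposited table holds estimated counts per gene symbol as whole numbers, 1 column per library. Tables deposited by the authors give, per the file headers, a mean normalised signal, log2 fold changes and their errors, a test statistic (score) and a p-value with its adjusted value for each knockdown. Only the fold changes, errors and adjusted values were used here.

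Groups followed the labels, and 15 libraries were compared. edgeR 4.0.16 (R 4.3.3) was fitted to all 15 with TMM scaling, its default filter on low counts (14621 genes kept) and robust quasi-likelihood F tests. Benjamini-Hochberg adjustment ran over all tested genes in each of 5 comparisons, with a threshold of 0.05. The standard error was the log2 change divided by the root of F. The scripts were tested on simulated data. No same-group pair of libraries agreed within sampling noise. Totals of 11500149 to 27187991 limit the precision of low genes such as HDAC9.

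Every member is named, and values in each library are given for members called against NS. The partner genes named were picked from the up to 3 called genes of each list and comparison with the smallest adjusted p. Others of these genes are not named. The members and lists were chosen with earlier results of these data known. Of 109 listed partner genes, 1 symbol was not matched and 105 were tested. Same-numbered libraries deviated together across all tested genes (correlation 0.427 to 0.565 for BRG1 and NS, 0.179 to 0.454 for double and NS, 0.104 to 0.532 for BRG1 and BRM). The replicate number was therefore treated as a pairing there. Differently numbered libraries were not compared in this way. The correlations can thus come from the difference between low- and high-numbered libraries, and they do not show a pairing by number. For BRM and NS the correlation was 0.0733 to 0.527, below the limit of 0.1 in 1 pair. It was 0.0578 to 0.659 for double and BRG1 and 0.0133 to 0.589 for double and BRM, where the lowest pair was also below the limit. The alternatives were RLE scaling, DESeq2 1.42.0, other filters, only the groups compared, the replicate block, a term for the low- and high-numbered libraries, leaving out each library, and each set alone, the last chosen after seeing the data.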

Additional observations from a re-analysis of the deposited data

Results flagged for a closer look

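Among 60 groups of 4 libraries tested (the called members in BRG1, double and NS libraries), 2 held a library whose gap to the nearest other library, divided by the range of the group, was above Dixon's critical value; chance gives about 1 in 20 such groups. HDAC9 in double library 3 stood at 7.90 CPM, where the other double libraries lay between 2.52 and 3.04 CPM (ratio 0.904). KDM1A in double library 4 stood at 121.35 CPM, where the other double libraries lay between 98.3 and 100.6 CPM (ratio 0.899), and all 4 were below the lowest NS library.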

How the results depend on the processing

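No called member changed sign under any alternative. All 51 calls held in DESeq2, with a mean of at least 2 CPM, with the replicate block and with the set term; 49 held with RLE scaling, 39 without a filter, 38 with only the groups compared, 43 in the low-numbered and 41 in the high-numbered libraries alone. Leaving out 1 library kept 672 of 765 calls. The count of members called ranged from 4 to 7 for BRG1, from 5 to 11 for BRM, from 12 to 15 for double and from 13 to 21 for BRG1 against BRM, and stayed at 0 for the interaction. Shares in brackets are of all tested genes. DESeq2 called 17 for BRM (19.3%). Without a filter on low counts, where more genes are tested, the counts were 3 for BRG1 (11.1%) and 7 for BRM (6.16%), and with only the groups compared 4 for BRM (6.52%). With the replicate block they were 13 for BRG1 (36.4%), 21 for BRM (28.4%), 31 for BRG1 against BRM (49.4%) and 1 for the interaction (4.33%; KDM1A at −0.71, edgeR adjusted p = 0.0342). The pairing of BRM and NS did not pass its check, with correlations down to 0.0733, so its block count describes a shared number only. The same holds for the interaction, whose block also joins double with BRG1 and with BRM libraries (correlations down to 0.0578 and 0.0133). Where the check was passed, it did not separate a pairing by number from the difference between the sets. With the set term the counts were 14 for BRG1 (39.1%), 28 for BRM (32%), 34 for BRG1 against BRM (52.4%) and 3 for the interaction (7.26%). The low-numbered libraries alone gave 17 for BRG1 (38.4%), 19 for BRM (27.7%) and 4 for the interaction (10.9%), and the high-numbered 10 for BRG1 (25.9%) and 20 for BRM (21.1%). The cause of these shifts was not tested.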
